A study of Mus musculus with 6 samples.

Results

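The 7 genes described here, Gabra2, Gabra3, Gabra4, Gabra5, Gabrb1, Gabrb2 and Gabrd, encode subunits of the GABA-A receptor. They were taken by symbol from a table of 36079 mouse genes and were each matched by 1 Ensembl identifier. RNA-seq was done on temporal lobe of mice with epilepsy induced by kainic acid, which activates glutamate receptors and sets off seizures. The ketogenic group was 3 such mice on a ketogenic diet (rich in fat, poor in carbohydrate) for 3 weeks, and the chow group was 3 such mice on chow for the same time. All 6 had received kainic acid, so no library came from a mouse without it, and the sources used here do not give strain, age or sex. The labels number 1 library per mouse on each diet and name the tissue of each as brain.

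The GABA-A receptor is a chloride channel of 5 subunits that opens when the transmitter GABA binds, and it carries most of the fast inhibition of the forebrain. Alpha and beta subunits form the GABA sites, and the alpha subunit sets where the receptor sits and how it answers to benzodiazepines. Receptors with alpha2 or alpha3 are mainly synaptic, those with alpha5 are largely extrasynaptic in the hippocampus, and those with alpha4 and delta lie outside synapses, carry tonic current and respond strongly to neurosteroids. Loss of inhibition through this receptor favours seizures, and several antiseizure drugs act on it.

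Expression was given as FPKM, which divides fragments by gene length and by depth. Levels set side by side between genes therefore depend on the lengths used. In the annotation used here, which may differ from the authors', exonic lengths ran from 2875 bases for Gabrd to 13838 for Gabrb1. Read numbers recovered from the steps of the FPKM values ran from 1506 to 14751 per member and library, and their sum over all genes from 39927217 to 55910355 per library. Of 36079 genes, 16009 had a mean of at least 0.5 FPKM and were tested, all 7 members among them. Libraries differed widely in the RNA of marker genes of brain regions, and the labels do not give the regions each held. Thalamic markers (12 of 12 tested) summed to 26.6, 22.8 and 37.6 FPKM in ketogenic replicates 1, 2 and 3, and to 439, 28.6 and 80.9 FPKM in chow replicates 1, 2 and 3. Striatal markers (12 of 12 tested) summed to 70.9, 980 and 328 FPKM in the ketogenic libraries, and to 67.2, 1195 and 93.6 FPKM in the chow libraries. On these sums alone, chow replicate 1 is called thalamus-rich below, and replicate 2 of each diet striatal-rich. No marker of these lists was at 0 in any library. In bulk tissue, fewer cells of a type and less RNA per cell cannot be told apart.

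The genes lie in clusters. In RefSeq's annotation of GRCm38.p6, Gabrg1, Gabra2, Gabra4 and Gabrb1 follow each other on chromosome 5 with only Cox7b2 between Gabra2 and Gabra4, Gabra3 has Gabrq as its neighbour on the X chromosome, Gabra5 has Gabrg3 on chromosome 7, Gabrb2 has Gabra6 on chromosome 11, and Gabrd stands on chromosome 4 between Prkcz and Cfap74. Positions in the authors' build, GRCm39, are not used here. Gabra4 and Gabrb1 run in opposite directions from start sites 387 bases apart, so their first transcribed parts overlap. The start regions printed below do not. Both start regions are shown because the pair face each other and yet, as given further on, were highest in different libraries. The sequences are RefSeq's, from 250 bases before to 50 bases after a start site, 5′ to 3′ on the gene's own strand, with each CG dinucleotide in capitals.
Gabra4, chr5:71658259-71658558, minus strand, GRCm38.p6: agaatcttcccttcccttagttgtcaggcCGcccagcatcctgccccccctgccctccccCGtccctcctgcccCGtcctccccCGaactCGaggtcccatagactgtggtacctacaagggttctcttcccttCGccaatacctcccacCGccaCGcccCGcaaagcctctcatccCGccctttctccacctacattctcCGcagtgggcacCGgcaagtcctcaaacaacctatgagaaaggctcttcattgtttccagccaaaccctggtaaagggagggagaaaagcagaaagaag
Gabrb1, first start, chr5:71657671-71657970, plus strand, GRCm38.p6: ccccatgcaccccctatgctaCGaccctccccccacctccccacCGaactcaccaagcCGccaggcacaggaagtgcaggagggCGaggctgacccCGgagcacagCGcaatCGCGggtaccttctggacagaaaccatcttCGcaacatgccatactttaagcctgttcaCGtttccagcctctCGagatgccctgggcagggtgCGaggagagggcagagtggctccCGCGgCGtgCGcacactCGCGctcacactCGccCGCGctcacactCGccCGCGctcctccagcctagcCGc
Gabra3, first start, chrX:72656870-72657169, minus strand, GRCm38.p6: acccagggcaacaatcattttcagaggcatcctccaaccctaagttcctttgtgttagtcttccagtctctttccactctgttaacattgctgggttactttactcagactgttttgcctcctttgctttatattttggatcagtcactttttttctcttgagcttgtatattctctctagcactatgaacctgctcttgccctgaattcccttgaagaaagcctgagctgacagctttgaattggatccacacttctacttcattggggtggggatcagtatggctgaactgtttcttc
The third stretch belongs to Gabra3, the member with the highest mean on both diets, and it is shown as the contrast in CG content. It held 0 CG dinucleotides, against 12 in the Gabra4 and 25 in the first Gabrb1 stretch, where the median over all 32851 promoters of this length was 7. Gabra2 also had 25, and the other member promoters had 0 to 13.

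Of the members, 6 had promoters in that table, 10 in all. The Egr motif GCGNGGGCG, searched on both strands as were all motifs, occurred 2 times in the first Gabrb1 promoter and 1 time in the first Gabrb2 promoter, and in none of the other 8. It occurred in 5.55% of all promoters. TATAAA occurred 1 time in each of both Gabra3 promoters and in the first Gabrb2 promoter, against 13.6% of all promoters. The Gabra3 promoters overlap each other, and the match in both is the same site. TGACGTCA (1.79% of all) and CACGTG (7.15% of all) were found in no member promoter. The motifs cannot hold one another and were counted separately, and a match is a description only.

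On the diet question, no member separated the diets. Gabra2, Gabra3 and Gabra5 had positive and Gabra4, Gabrb1, Gabrb2 and Gabrd negative log2 changes (ketogenic minus chow), between -0.47 and 0.34, with a median of -0.09 beside -0.04 over all tested genes. In all 7 the ketogenic and chow values overlapped. None passed limma's test at an adjusted p under 0.05 (adjusted p = 0.752 to 0.904 over all 16009 genes), where 0% of all tested genes passed. At an unadjusted p under 0.05, 0 members were found by limma, and voom on recovered reads likewise gave 0. Of all tested genes 5.38% had such a p in the first fit, 2.06% with a higher and 3.32% with a lower ketogenic level. Groups did not overlap in 0 of the 7 members, where they did not in 12.4% of all tested genes (4.90% higher and 7.49% lower on the ketogenic diet).

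**Figure D1:**
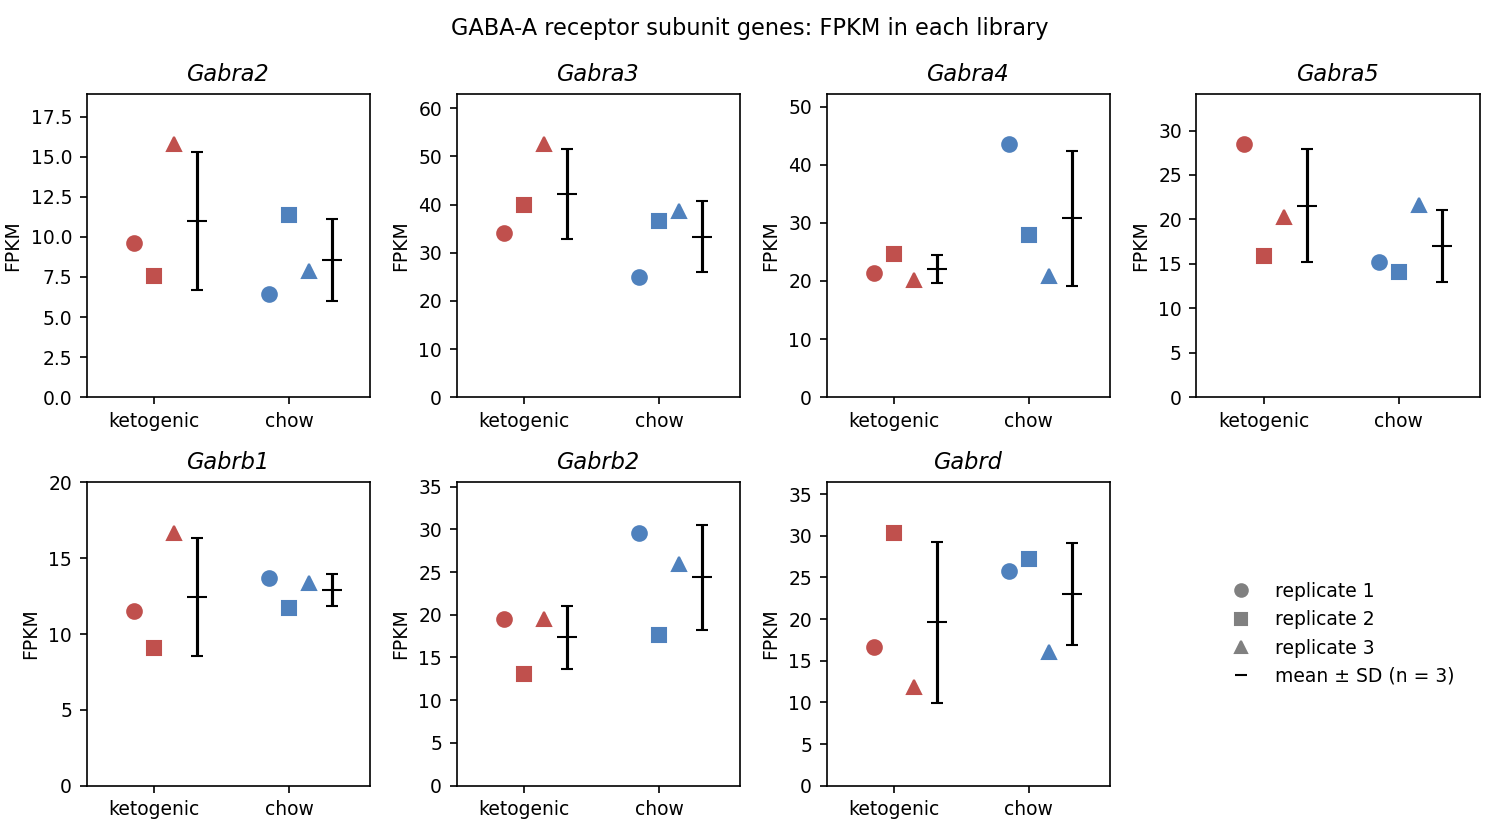
FPKM of the 7 genes (vertical axis, from 0, a scale per panel) in each ketogenic and chow library; marker shapes are replicate numbers, and the black bar is the mean with its SD over 3 mice. Ketogenic and chow values overlap in every panel, and in Gabra4 chow replicate 1, at 43.5 FPKM, lies apart from the other libraries.

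Among the alpha subunits, Gabra3 (ENSMUSG00000031343), found in synaptic receptors of deep cortex, amygdala and monoamine neurons, measured 34.1, 39.9 and 52.5 FPKM in ketogenic replicates 1, 2 and 3, and 24.9, 36.5 and 38.7 FPKM in chow replicates 1, 2 and 3. The lowest library was chow replicate 1 and the highest ketogenic replicate 3. The means were 42.2 ± 9.43 FPKM in ketogenic mice and 33.4 ± 7.42 FPKM in chow mice (SD, n = 3 each), a log2 change of 0.34 ± 0.22 (SE) with a 95% interval from -0.20 to 0.88. The log2 change was 0.14 without chow replicate 1, 0.17 without ketogenic replicate 3 and 0.48 without ketogenic replicate 1, the highest with 1 library left out. It was 0.06 once each library's thalamic score, the median log2 deviation of those markers, entered as a covariate. With the striatal, dentate gyrus or cortical excitatory neuron score in its place the log2 change was 0.30, 0.29 and 0.31.

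Gabra2 (ENSMUSG00000000560), the alpha subunit of synapses on axon initial segments and of amygdala and striatum, was the lowest of the 7 genes on both diets. It measured 9.61, 7.56 and 15.8 FPKM in ketogenic replicates 1, 2 and 3, and 6.42, 11.4 and 7.90 FPKM in chow replicates 1, 2 and 3. Ketogenic replicate 3 stood above the other 5 libraries. The log2 change was 0.31 ± 0.31 (SE; 95% interval -0.43 to 1.05), and with 1 library left out it ran from 0.03 (without ketogenic replicate 3) to 0.54 (without ketogenic replicate 2). It was 0.14 without chow replicate 1 and 0.53 without chow replicate 2.

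Gabra5 (ENSMUSG00000055078), the alpha subunit of hippocampal tonic inhibition, measured 28.5, 15.9 and 20.3 FPKM in ketogenic replicates 1, 2 and 3, and 15.2, 14.1 and 21.6 FPKM in chow replicates 1, 2 and 3. The highest library was ketogenic replicate 1, and chow replicate 3 came next. Its log2 change was 0.32 ± 0.25 (SE; 95% interval -0.28 to 0.92), and it was 0.10 without ketogenic replicate 1, 0.20 without chow replicate 2, 0.51 without ketogenic replicate 2 and 0.50 without chow replicate 3. In the annotation used here 4.98% of its exonic bases overlap Gm9962 on the other strand, and the strand setting of the counting is not given, so some of its reads are uncertain.

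Gabra4 (ENSMUSG00000029211), which pairs with delta in extrasynaptic receptors of thalamus, dentate gyrus and striatum, measured 21.4, 24.7 and 20.1 FPKM in ketogenic replicates 1, 2 and 3, and 43.5, 27.8 and 20.9 FPKM in chow replicates 1, 2 and 3. The 3 ketogenic libraries lay close together and chow replicate 1 stood well above all others. The means were 22.1 ± 2.37 FPKM in ketogenic mice and 30.7 ± 11.6 FPKM in chow mice (SD, n = 3 each), and the log2 change was -0.41 ± 0.26 (SE; 95% interval -1.04 to 0.22). It was -0.13 without chow replicate 1, the library with the highest thalamic markers, and -0.65 without chow replicate 3 (limma, unadjusted p = 0.0281, adjusted p = 0.871). With the thalamic, striatal, dentate gyrus or cortical excitatory neuron score as a covariate it was -0.06, -0.40, -0.40 and -0.21. After chow replicate 1 came chow replicate 2 and ketogenic replicate 2, the libraries with the highest striatal markers, and the part of these regions in the Gabra4 values was not tested.

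Of the beta subunits, Gabrb2 (ENSMUSG00000007653), the main partner of the most common synaptic receptors, had the smallest unadjusted p of the 7 genes (limma, 0.0949). It measured 19.5, 13.1 and 19.5 FPKM in ketogenic replicates 1, 2 and 3, and 29.6, 17.6 and 25.9 FPKM in chow replicates 1, 2 and 3. Chow replicates 1 and 3 were above all ketogenic libraries, and chow replicate 2 lay below ketogenic replicates 1 and 3. The means were 17.4 ± 3.70 FPKM in ketogenic mice and 24.4 ± 6.14 FPKM in chow mice (SD, n = 3 each), a log2 change of -0.47 ± 0.24 (SE; 95% interval -1.05 to 0.11). Both striatal-rich libraries had the lowest value of their diet, and with the striatal score as a covariate the log2 change was -0.39 (limma, unadjusted p = 0.0203, adjusted p = 0.746). With the thalamic, dentate gyrus or cortical excitatory neuron score it was -0.11, -0.38 and -0.36. It was -0.28 without ketogenic replicate 2 and -0.68 without chow replicate 2 (limma, unadjusted p = 0.0181, adjusted p = 0.428).

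Gabrb1 (ENSMUSG00000029212), a beta subunit of neurons that is also found in astrocytes, had the smallest change. It measured 11.5, 9.09 and 16.7 FPKM in ketogenic replicates 1, 2 and 3, and 13.7, 11.7 and 13.3 FPKM in chow replicates 1, 2 and 3. The ketogenic values lay on both sides of the narrow chow range, and the log2 change of -0.09 ± 0.22 (SE; 95% interval -0.61 to 0.43) was 0.10 without ketogenic replicate 2 and -0.32 without ketogenic replicate 3. Gabrb1 thus did not share the order of libraries of Gabra4, whose first transcribed part overlaps its own: Gabra4 was lowest in ketogenic replicate 3, where Gabrb1 was highest. Exons of the pair overlap by 46 bases in the annotation used here, 0.76% of the exonic bases of Gabra4 and 0.33% of those of Gabrb1.

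Gabrd (ENSMUSG00000029054), the delta subunit of neurosteroid-sensitive tonic receptors, varied most between libraries. It measured 16.6, 30.4 and 11.8 FPKM in ketogenic replicates 1, 2 and 3, and 25.7, 27.3 and 16.0 FPKM in chow replicates 1, 2 and 3. Each diet held high and low libraries, and the highest and the lowest of the 6 were both ketogenic. The means were 19.6 ± 9.64 FPKM in ketogenic mice and 23.0 ± 6.09 FPKM in chow mice (SD, n = 3 each), a log2 change of -0.30 ± 0.37 (SE; 95% interval -1.18 to 0.59) that was 0.0034 without ketogenic replicate 3 and -0.66 without ketogenic replicate 2. Its 3 highest libraries were both striatal-rich ones and the thalamus-rich chow replicate 1, and the part of these regions was not tested. Cerebellar granule cells are a main site of Gabrd, and 1 of 6 cerebellar markers, Cbln1, reached the filter. Cbln1 measured 1.63, 2.84 and 2.80 FPKM in ketogenic replicates 1, 2 and 3, and 16.6, 2.29 and 4.33 FPKM in chow replicates 1, 2 and 3. Its relation to the Gabrd values was not tested. The cerebellar genes Fat2, Cbln3 and Pcp2 and the granule cell subunit Gabra6 did not exceed 0.314 FPKM in any library. That limit does not cover Barhl1 and Ppp1r17, the rest of the list, which were also under the filter. All 6 cerebellar markers summed to 2.02, 3.28 and 4.21 FPKM in ketogenic replicates 1, 2 and 3, and to 17.6, 2.71 and 5.64 FPKM in chow replicates 1, 2 and 3.

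**Figure D2:**
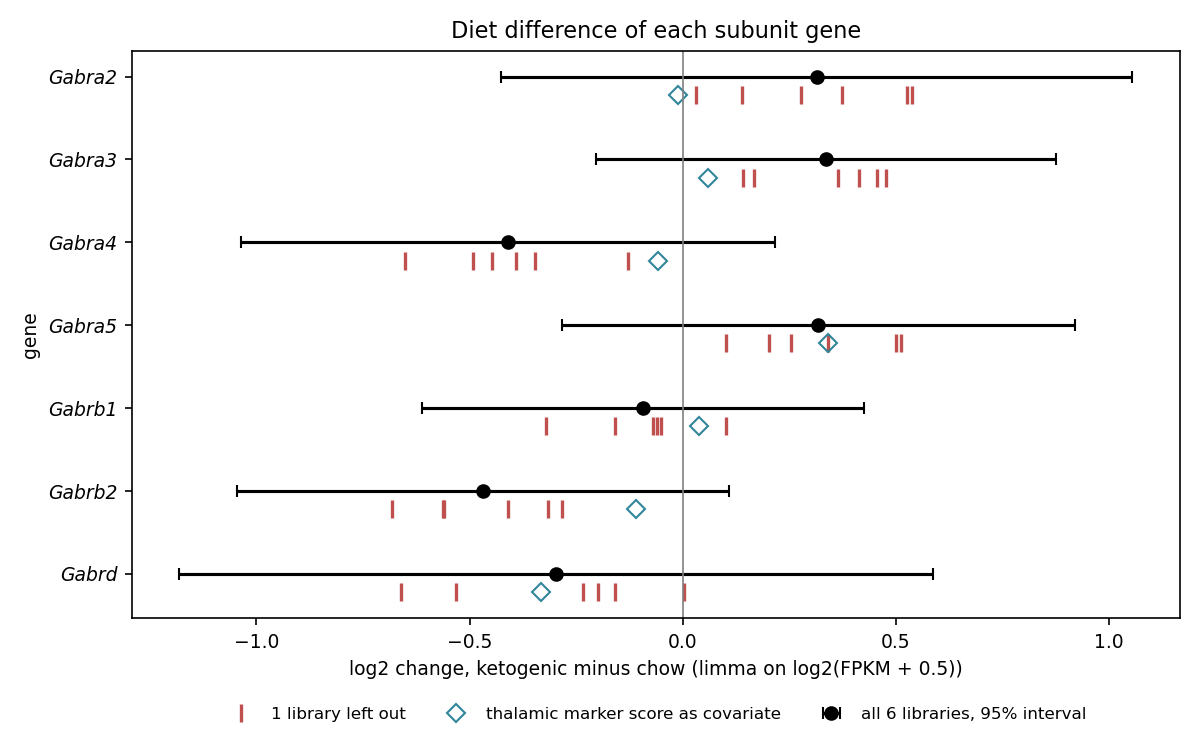
Log2 change of each gene, ketogenic minus chow, on the log2(FPKM + 0.5) scale (black points, bars are 95% intervals of limma), with the change when each library is left out (red ticks) and with the thalamic score entered as a covariate (open diamonds). Every interval crosses 0. With the thalamic score Gabra2, Gabra3, Gabra4 and Gabrb2 lie at -0.011, 0.06, -0.06 and -0.11, and Gabra5, Gabrb1 and Gabrd at 0.34, 0.038 and -0.33.

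Over the 6 libraries the SD of log2 values was 0.28 for Gabrb1 and 0.52 for Gabrd, the ends of the 7, beside a median of 0.21 over all tested genes. The highest library was 1.84 times the lowest for Gabrb1 and 2.57 times for Gabrd. The summed FPKM of the 7 genes was 141, 141 and 157 in ketogenic replicates 1, 2 and 3, and 159, 146 and 144 in chow replicates 1, 2 and 3, so the highest library was 1.13 times the lowest. The sum of Gabra2 to Gabra5 was 93.6, 88.0 and 109 FPKM in the ketogenic libraries, and 90.1, 89.8 and 89.1 FPKM in the chow libraries. The chow libraries held nearly equal sums of these alpha subunits while their single values differed. The sum of Gabrb1 and Gabrb2 was 31.0, 22.2 and 36.1 FPKM in the ketogenic libraries, and 43.3, 29.4 and 39.3 FPKM in the chow libraries. Its highest library was 1.95 times its lowest, between the 1.84 times of Gabrb1 and the 2.26 times of Gabrb2.

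In order of level, Gabra3 led on both diets. In the ketogenic libraries it was followed by Gabra4, Gabra5, Gabrd, Gabrb2, Gabrb1 and Gabra2, and its range, from 34.1 FPKM up, lay apart from that of Gabra4. The ranges of every other pair of neighbours in that order overlapped, though Gabrb2 was above Gabrb1, and Gabrb1 above Gabra2, in each of the 3 libraries. In the chow libraries the order was Gabra3, Gabra4, Gabrb2, Gabrd, Gabra5, Gabrb1 and Gabra2. There the ranges of Gabra5 and Gabrb1 lay apart, as did those of Gabrb1 and Gabra2, and the others overlapped.

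**Figure D3:**
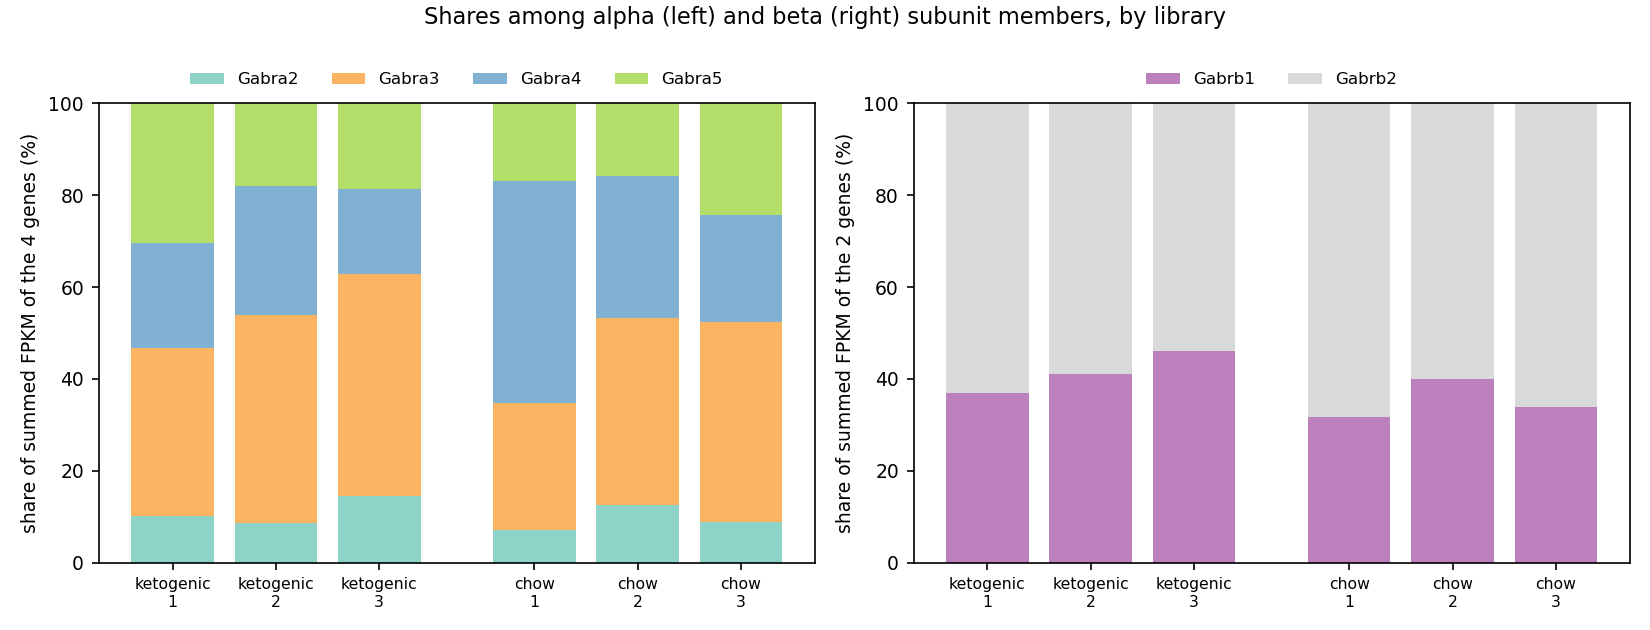
Shares of the summed FPKM held by Gabra2, Gabra3, Gabra4 and Gabra5 (left) and by Gabrb1 and Gabrb2 (right), in percent, in each ketogenic and chow library; bars add to 100. Gabra4 holds 48.3% in chow replicate 1 and 18.5% to 31.0% in the other libraries.

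Shares within a subunit class do not depend on scaling between libraries. Gabra4 held 22.9%, 28.1% and 18.5% of the summed FPKM of Gabra2 to Gabra5 in ketogenic replicates 1, 2 and 3, and 48.3%, 31.0% and 23.4% in chow replicates 1, 2 and 3. Its mean share was 23.1 ± 4.79% on the ketogenic diet and 34.2 ± 12.8% on chow (SD, n = 3 each; exact permutation test, two-sided, p = 0.2, adjusted p = 0.6 over the 6 quantities of this kind). Gabra3 held 43.3 ± 6.17% on the ketogenic diet and 37.2 ± 8.43% on chow. Gabra5 held 22.4 ± 6.97% on the ketogenic diet and 19.0 ± 4.63% on chow, and Gabra2 held 11.1 ± 3.06% on the ketogenic diet and 9.55 ± 2.83% on chow. Of Gabrb1 and Gabrb2 together, Gabrb1 held 37.0%, 41.0% and 46.2% in the ketogenic libraries, and 31.6%, 39.9% and 34.0% in the chow libraries (exact permutation test, two-sided, p = 0.2). The ratio of Gabrd to Gabra4 was 0.864 ± 0.330 on the ketogenic diet and 0.779 ± 0.195 on chow. With 1 library left out the difference, ketogenic minus chow, ran from -16.5 to -4.06 percentage points for the Gabra4 share, from 1.32 to 9.57 for the Gabra3 share and from 3.83 to 8.60 for the Gabrb1 share. The smallest differences of Gabra4 and Gabra3 were those without chow replicate 1. None of the 6 quantities passed, and with 3 mice against 3 the smallest two-sided p of this test is 0.1.

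**Figure D4:**
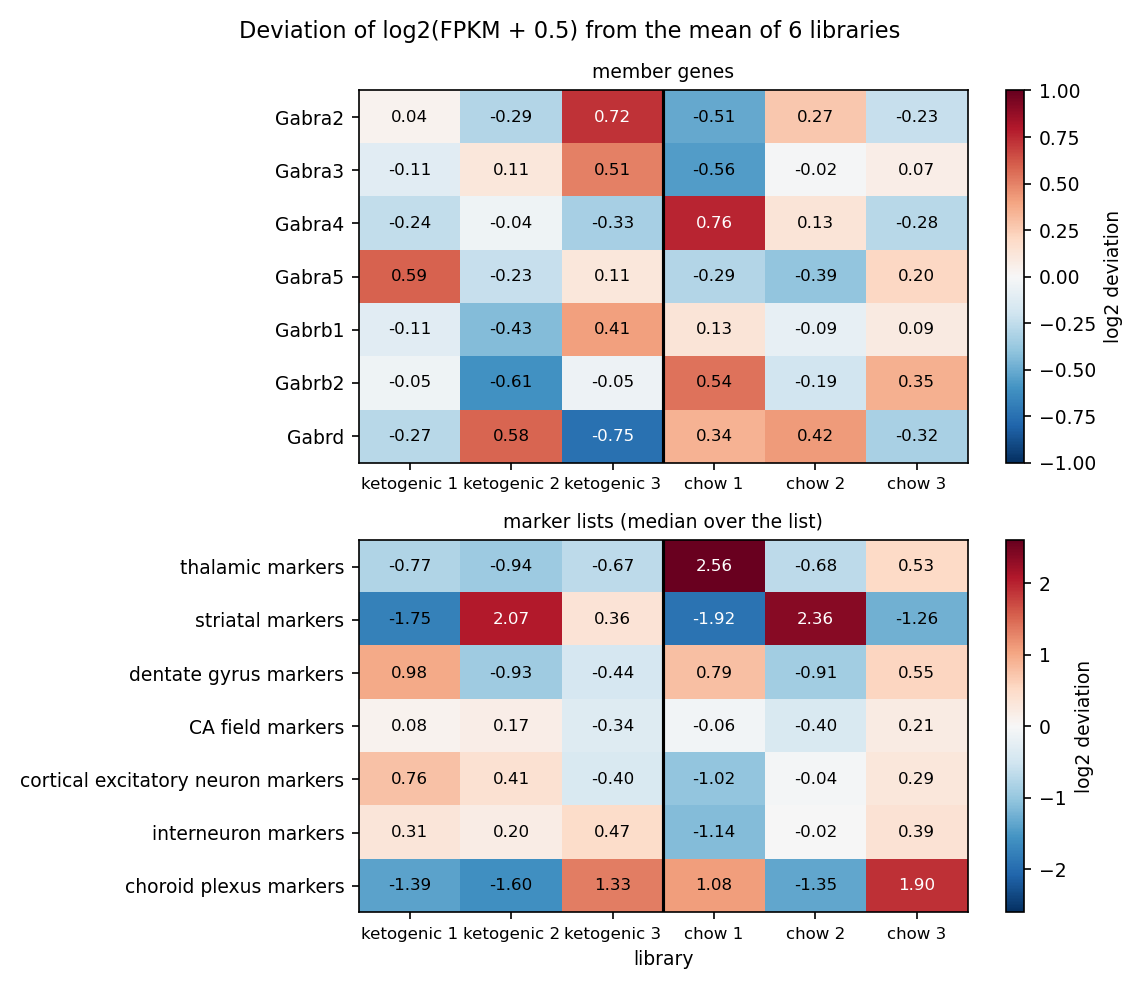
Deviation of log2(FPKM + 0.5) from the mean of the 6 libraries for each gene (top) and the median of that deviation over marker lists of brain regions and cell types (bottom), with ketogenic libraries left of the line and chow libraries right of it; each block has its own colour scale. Chow replicate 1 has the highest thalamic value, 2.56, and the highest Gabra4 and Gabrb2.

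The order of libraries differed between members. The 3 libraries with the most Gabrd, ketogenic replicate 2, chow replicate 2 and chow replicate 1, were the 3 with the least Gabra5. Gabra2, Gabra3 and Gabrb1 were all highest in ketogenic replicate 3, where Gabrd and Gabra4 were lowest. Gabra4 and Gabrb2 were both highest in chow replicate 1, where Gabra2 and Gabra3 were lowest and where thalamic markers were highest and cortical excitatory neuron markers lowest, with a median log2 deviation of -1.02. Choroid plexus markers, at 1.33 in ketogenic replicate 3, and at 1.08 and 1.90 in chow replicates 1 and 3, split the libraries another way. Their part in the values was not tested.

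**Figure D5:**
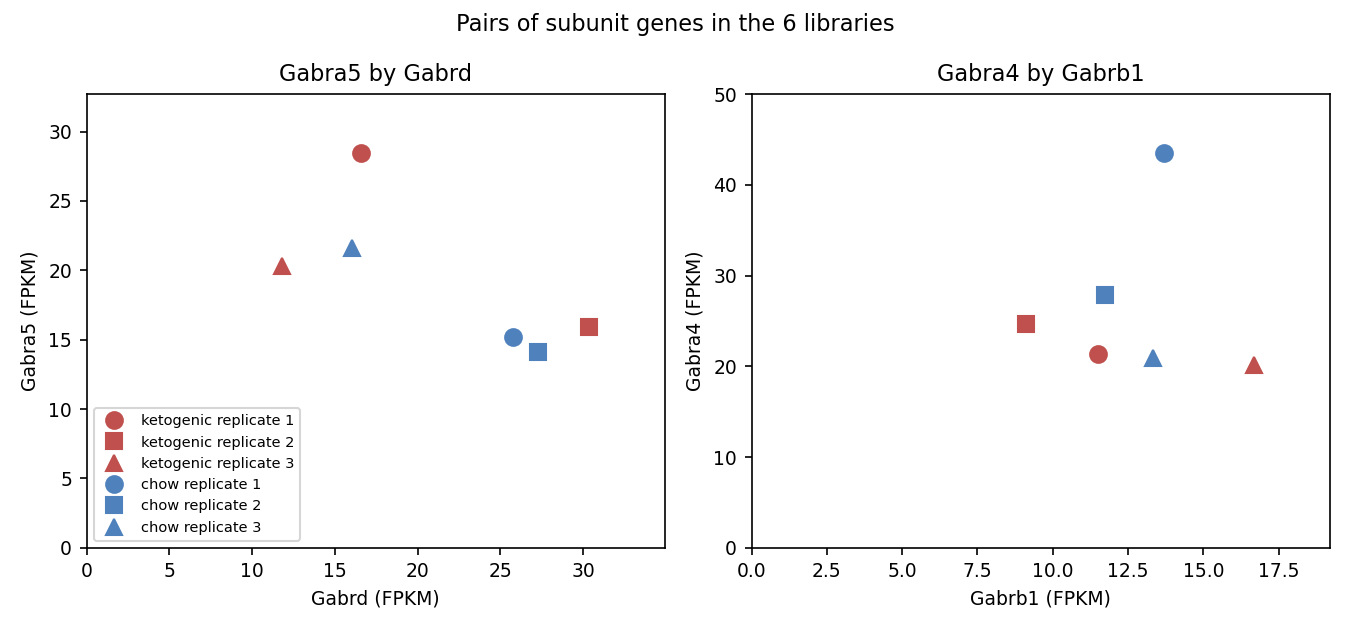
Gabra5 against Gabrd (left) and Gabra4 against Gabrb1 (right) in FPKM, with a point per library; red points are ketogenic, blue points chow, and shapes are replicate numbers. The 3 libraries with Gabrd of 25.7 FPKM or more have Gabra5 of 15.9 FPKM or less.

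Genes were also ranked by how closely they followed each member over the 6 libraries, by Pearson's r of log2(FPKM + 0.5) among 12078 genes, as a description. Gabrb2 was followed most closely by Unc80, part of the sodium leak channel complex (r = 0.999), and Flvcr1 (0.998), and 243 genes had an r of 0.95 or more with it, the most of the 7. Unc80 measured 30.2, 22.3 and 30.6 FPKM in the ketogenic libraries, and 41.5, 28.4 and 37.6 FPKM in the chow libraries. The closest genes were Fank1 and Wdr66 for Gabra3 (both 0.998), Jak3 (0.995) and Ly6c1 (0.989) for Gabra4, Cstf2 (0.995) and Xpr1 (0.993) for Gabrb1, Fbrs (0.994) and Stk4 (0.991) for Gabra5, Srsf9 (0.989) and Pigx (0.988) for Gabra2, and Gdpd5 (0.987) and Adam23 (0.985) for Gabrd. With 6 libraries that differ in regional markers, 20 to 243 genes reached 0.95 for a member.

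Of the 12 other genes for subunits of GABA-A receptors and their rho relatives, 7 were tested, with 4 higher and 3 lower on the ketogenic diet and 0 past limma's test. Gabrg1, the gamma subunit next to Gabra2, measured 2.00, 2.32 and 6.76 FPKM in the ketogenic libraries, and 4.86, 4.53 and 3.06 FPKM in the chow libraries, and like Gabra2 it was highest in ketogenic replicate 3. Gabrq, the theta subunit gene beside Gabra3, measured 0.0663, 0.249 and 3.60 FPKM in the ketogenic libraries, and 2.01, 0.783 and 0.386 FPKM in the chow libraries. It shared its highest library with Gabra3, but chow replicate 1, lowest for Gabra3, was second for Gabrq. Gabrg3 (log2 change 0.02) and Gabrr2 (0.06) showed small differences, and Gabra6, Gabre, Gabrp, Gabrr1 and Gabrr3 stayed at or below 0.675 FPKM in every library.

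Proteins that hold or move the receptor were measured beside it. Of 16 tested scaffold and auxiliary genes, 10 had positive and 6 negative log2 changes (median 0.05), with 0 past limma's test. Nlgn2, the neuroligin of inhibitory synapses, measured 43.8, 49.2 and 43.7 FPKM in ketogenic replicates 1, 2 and 3, and 32.0, 40.2 and 36.1 FPKM in chow replicates 1, 2 and 3. All ketogenic values lay above all chow values, as in 4.90% of all tested genes, and the log2 change was 0.34 ± 0.12 (SE; limma, adjusted p = 0.752). The other leading genes were Nrxn2 (0.34), a presynaptic partner of neuroligins, the receptor auxiliary protein Shisa7 (0.60) and Mdga1 (0.25), which binds neuroligins. Of 17 trafficking genes 7 were higher and 10 lower, with a median of -0.03. Trak1, an adaptor of kinesin transport, was the 1 of the 17 with groups that did not overlap. It measured 19.9, 19.7 and 17.2 FPKM in the ketogenic libraries, and 12.3, 16.0 and 14.9 FPKM in the chow libraries. Ketogenic values lay above all chow values in 4.90% of all tested genes, and its log2 change was 0.39 (limma, adjusted p = 0.752). Kif5b (-0.46), the kinesin heavy chain, Plcl2 (0.41) and Ubqln1 (-0.11) came next.

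Of 9 genes of GABA synthesis, transport and breakdown, 7 had negative and 2 positive log2 changes (median -0.29), with 0 past limma's test. Slc6a11, the astrocyte GABA transporter GAT-3, measured 18.9, 20.5 and 44.4 FPKM in the ketogenic libraries, and 130, 32.8 and 45.7 FPKM in the chow libraries, where the thalamus-rich chow replicate 1 was far above the rest. Slc38a1 (-0.43), a glutamine transporter, Aldh5a1 (-0.33) and Abat (-0.42), which break GABA down, followed. Groups did not overlap for Aldh5a1, 1 of the 9 (limma, adjusted p = 0.752). They did not in 12.4% of all tested genes, 7.49% with lower ketogenic values. Of 8 chloride transport genes 5 were lower, with Stk39, Oxsr1 and Wnk1, kinases that control the chloride cotransporters, at -0.37, -0.24 and -0.31 and the chloride channel Clcn2 at 0.27.

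All 7 tested genes of neurosteroid synthesis and of the benzodiazepine-site ligand had negative log2 changes, from -0.36 to -0.006 with a median of -0.13. Of these, 0 passed limma's test, and 43.1% of all tested genes had positive changes. Akr1c14, which makes the delta-receptor modulator allopregnanolone, measured 0.630, 0.536 and 0.793 FPKM in the ketogenic libraries, and 1.09, 0.887 and 0.952 FPKM in the chow libraries, so the groups did not overlap (lower in this way in 7.49% of all tested genes; log2 change -0.36; limma, adjusted p = 0.752). Oligodendrocyte markers were also lower in 6 of 6, with a median of -0.45 and sums of 569 to 1282 FPKM in ketogenic and 792 to 1987 FPKM in chow libraries. Endothelial markers were lower in 6 of 6 (median -0.24, 53.4 to 62.3 FPKM in ketogenic and 57.9 to 78.7 FPKM in chow libraries), and thalamic markers in 12 of 12 (median -1.49). Their part in the values of this list was not tested. Dbi, the diazepam binding inhibitor, had a log2 change of -0.33, Srd5a1 one of -0.17 and Hsd17b10 one of -0.13. GABA-B receptor genes had 4 of 6 lower (median -0.08). Those with the smallest unadjusted p were Kctd8 (-0.19), Gabbr1 (-0.13) and Kctd12b (-0.21), all lower, and Kctd12 (0.11), which was higher. Of the related glycine receptor subunits all 4 tested were lower, with Glrb at -0.32, Glra1 at -1.39, Glra3 at -0.42 and Glra2 at -0.20. Glra1, a gene of brainstem and spinal cord, was at 6.01 FPKM in chow replicate 1 and at 1.62 FPKM or less elsewhere.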

How the data were processed

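The authors deposited a table of FPKM per gene, made with HISAT2 and featureCounts of Subread on build GRCm39, per the submitters' processing notes. Libraries were paired-end and made from oligo(dT)-selected mRNA, per the labels' protocols. No version, annotation or strand setting is given in those notes. Columns were assigned to mice by name, with 0 left unassigned. Symbols came from GENCODE M21 by identifier (35175 of 36079 matched).

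The 16009 genes averaging 0.5 FPKM or more entered limma 3.58.1 (R 4.3.3, trended eBayes). The model had 1 term, diet, the scale was log2(FPKM + 0.5), and there were two-sided p-values adjusted by Benjamini-Hochberg over all of them, threshold 0.05. Fold changes on this scale understate those of low genes. The fit was checked on simulated data with planted changes larger than those of the members and without regional differences between libraries. That check does not bear on changes of the members' size or on regional differences. Each gene's reads were recovered from the steps of its FPKM values (tolerance 0.001, 100% of 33862 genes above 0) and served depth and the voom alternative. Every pair of libraries differed beyond sampling noise (chi-square per gene at least 46.5). The p-values measure the spread between these libraries only. Shares were compared by an exact permutation test.

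Alternatives were other pseudocounts and filters, TPM, quantile and median scaling, robust eBayes, library weights, a replicate block, voom, regional marker scores as covariates and leaving out each library. Named genes were the 7 members, the other subunits, the 4 with the smallest unadjusted p of each pathway list and the 2 closest to each member. Members and lists were chosen with earlier results of these data known. Some genes these rules chose are not reported here.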

Additional observations from a re-analysis of the deposited data

How the results depend on the processing

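Under each of 21 alternatives, 0 genes of those it tested, the 7 members included, passed an adjusted p under 0.05, and the smallest adjusted p of a member was 0.426. Of 147 member changes 5 turned direction. With the thalamic score in the model Gabra2 was at -0.011 and Gabrb1 at 0.038, and with the cortical excitatory neuron score Gabrb1 was at 0.050. With 1 library left out Gabrb1 ran from -0.32 to 0.10 and Gabrd from -0.66 to 0.0034. The difference in the Gabra2 share ran from -0.123 to 3.13 percentage points, in the Gabra5 share from -0.614 to 6.06 and in the ratio of Gabrd to Gabra4 from -0.0987 to 0.223. The number of members at an unadjusted p under 0.05 was 2 (Gabra3 and Gabrb2) with the replicate block, 1 with the striatal score and 0 to 1 with 1 library left out. The share of all tested genes with such a p was taken in the main fit only (5.38%). These counts therefore stand without a share of their own fit beside them, and nothing is read from them. Shared replicate numbers did not pair the libraries: the correlations of deviations within numbers 1, 2 and 3 were -0.0373, 0.480 and -0.215, and ketogenic replicate 1 correlated best with chow replicate 3 (0.454). The cause of these shifts was not tested.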
